A study of Mus musculus with 10 samples.

Results

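The Sfmbt2 repeat-cluster miRNAs are a rodent group of small RNAs named miR-297, miR-466, miR-467 and miR-669, most of which are cut from hairpins in 1 intron of the gene Sfmbt2. Every row of the deposited table whose name carries 1 of these 4 numbers, with any letter and either arm, was taken as a member, which gave 32 of 733 rows (4 for miR-297, 12 for miR-466, 7 for miR-467 and 9 for miR-669). Small RNA was sequenced from small extracellular vesicles (sEVs), which cells shed with RNA inside, prepared from mouse heart as 5 control libraries and 5 libraries labelled HFD plus L-NAME, called treated here. The treated animals were C57BL/6J males, 8 weeks old at the start, that for 12 weeks ate a diet with 60% fat (HFD, high-fat diet) and drank water with 0.5 g/L L-NAME, which blocks nitric oxide synthases. Together these make a model of HFpEF, heart failure in which the ejection fraction is preserved. The controls were males on standard chow, with no age or strain stated for them. Vesicles came from whole heart tissue digested with collagenase, so any cell of the heart can have released them. The labels do not say that libraries came from separate animals, and p-values then measure only the spread between these libraries.

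Sfmbt2 encodes a Polycomb-group protein and is imprinted, with expression from the paternal copy in extraembryonic tissue. Its miRNA cluster arose by tandem duplication in rodents, is absent from humans, and is known for high expression in placenta and embryonic stem cells. A miRNA hairpin is cut into a duplex whose strands are named 5p and 3p after the side of the hairpin they come from. One strand is usually loaded into an Argonaute protein, where it pairs with target mRNAs, and the other is degraded.

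In heart vesicles the cluster was detected in every library at a very low level. It took 893 of 3143858 miRNA counts, 0.0284%, and its 2 leading members, miR-467e-5p and miR-467a-5p, held 57.0% of that. Nearly all counts (94.8%) lay on 5p strands, with miR-466 as the exception. The cluster's share of counts was 0.0323% ± 0.00342 in control and 0.0235% ± 0.00841 in the treated group (SD, n = 5 each), with overlapping groups. Neither of the 2 members abundant enough to be tested passed edgeR's adjusted threshold.

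The vesicles carried the miRNAs of heart tissue. The 4 heart muscle markers (miR-1a-3p, miR-133a-3p, miR-208a-3p and miR-499-5p) took 26.1% to 33.8% of counts in the control libraries and 31.1% to 46.6% in the treated group. Libraries held 238434 to 420828 miRNA counts each, and levels are given as CPM, counts scaled to a library total of 1000000 miRNA counts. A miRNA with 0 counts may still lie below a limit of 7.13 to 12.6 CPM, the level of 3 counts. Of 19 other miRNAs typical of embryonic stem cells and trophoblast (the miR-290 to miR-295 and miR-302 to miR-367 clusters), 4 had a row, with 24 counts over all libraries, 20 of them of miR-302d-3p. They took 0% to 0.00159% of counts per library. Intervals and limits given here cover counting error only, since reads without molecular identifiers are not independent molecules.

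RefSeq on GRCm38 places 82 precursors with these names, 72 of them in Sfmbt2 (chromosome 2, 10370510 to 10595253 in GENCODE M21, plus strand). All 72 lie in intron 11 of the transcript with the most exons (23), between 10466663 and 10518279, a stretch of 51.6 kb. They comprise 29 hairpins of miR-669, 24 of miR-466, 14 of miR-467 and 5 of miR-297. Several names have many copies, with 12 hairpins for miR-669a, 10 for miR-467a and 8 for miR-466b. The copies of miR-467a follow each other at a median spacing of 2462 bases (2413 to 4880). The hairpins have a strong base bias. Split at their midpoint, the 72 hairpins had a median of 72.2% G or U on the 5′ side and 28.6% on the 3′ side, against 55.6% and 51.4% over 2119 other mouse miRNA hairpins in GENCODE.

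**Figure D1:**
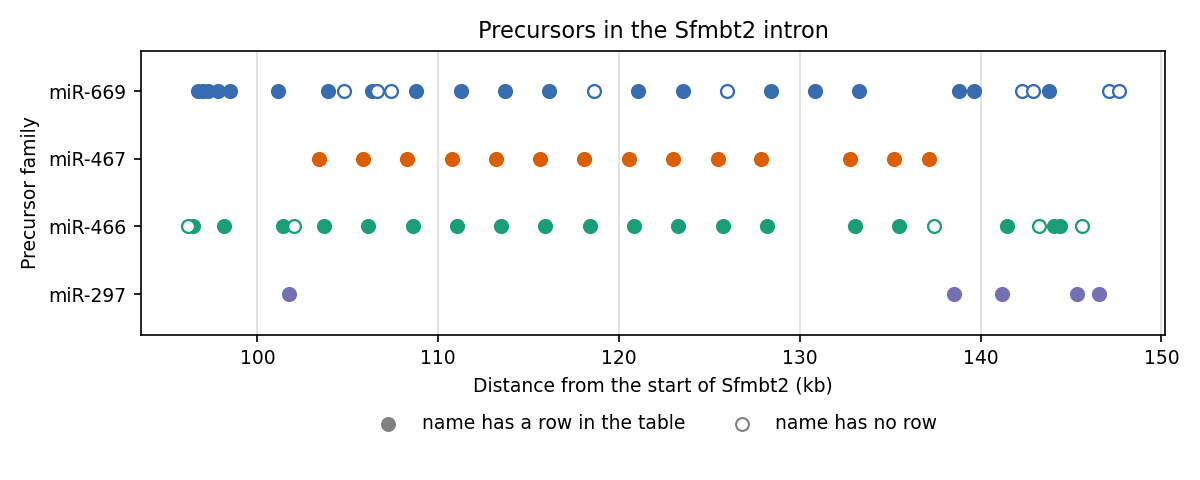
Each point is 1 hairpin, placed by its distance from the start of Sfmbt2 in kb, with 1 line for each family. The 58 filled hairpins bear a name with a row in the table, and the 14 open ones do not. The alternating miR-467, miR-466 and miR-669 hairpins form the middle of the 51.6 kb stretch, and of the 5 miR-297 hairpins 1 lies near its start and 4 near its end.

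Of the 32 members, 27 have all their hairpins in Sfmbt2. miR-297a (both arms) also has a hairpin on chromosome 7, and miR-466f (both rows) has a hairpin on chromosome 13 (71107089 to 71107209). miR-466i-5p is the member with no hairpin in the gene, as its hairpin lies on chromosome 13 (17747473 to 17747593). The 58 hairpins in Sfmbt2 whose names have a row carry 24 of the 36 names in the intron. The names of the other 14 hairpins were not analysed here.

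Near-identical copies limit how far counts can be assigned to a member. Among 56 pairs of rows of the same family and arm, the hairpins of 22 pairs share an unbroken run of 20 or more bases in that arm. The run was 41 bases between miR-467a-5p and miR-467b-5p, 28 bases between miR-467c-5p and miR-467e-5p, and 47 bases between miR-466b-3p and miR-466e-3p. How reads that match several members were counted is not given in the sources used here. Separate counts of such members are therefore uncertain, and sums over each family and arm are given beside them. These sums also join rows that lack such a run, for example miR-467a-5p and miR-467e-5p, whose longest shared run was 11 bases.

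**Figure D2:**
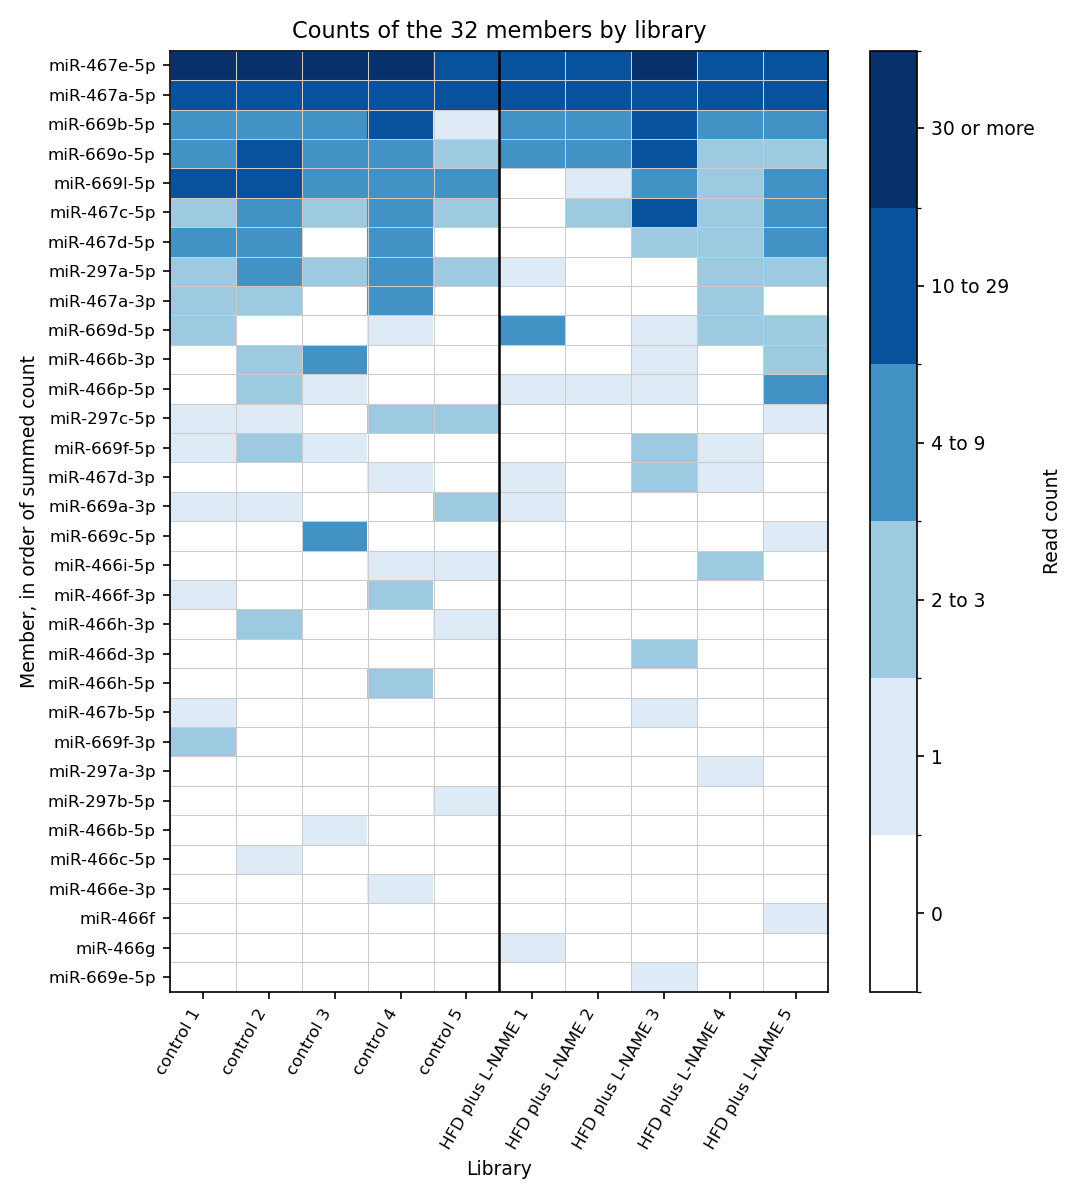
Each cell is the read count of 1 member (vertical axis, ordered by summed count) in 1 library (horizontal axis, control left of the line and the treated group right of it), and white cells are counts of 0. The members miR-467e-5p, miR-467a-5p, miR-669b-5p and miR-669o-5p had counts in all 10 libraries, and 11 others had counts in 1 library.

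Detection was patchy below the leading members. Of the 733 rows 0 lacked a count in every library, so detection is described only among miRNAs seen at least once. Of the 32 members, 4 had a count in all 10 libraries, 2 in 9 libraries (miR-669l-5p and miR-467c-5p), 1 in 8 (miR-297a-5p), and 11 in a single library. A total of 20 members had fewer than 10 counts over all libraries, 56 counts together, and 8 members rested on 1 count each. At least 1 count was found for 12 to 16 members in the control libraries (14.4 ± 2.19, SD, n = 5) and for 7 to 15 in the treated group (12.0 ± 3.39), so the groups overlapped. Treated 2 had the fewest, 7. At the depth of the shallowest library, 238434 counts, the expected numbers were 13.0 ± 1.33 and 11.3 ± 3.19. A total of 8 members with 14 counts in all were seen in control libraries alone. In the treated group alone 5 members with 6 counts were seen. These are too few counts to separate absence from depth. Control libraries were deeper, with a mean of 343300 miRNA counts against 285400, and the same shares over all rows are not given here.

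The miR-467 family led the cluster with 596 counts, 66.7% of the total. Its leading member miR-467e-5p, from a single hairpin (chromosome 2, 10505721 to 10505807), was the 123rd most abundant of the 733 rows with 320 counts. It had 46, 51, 52, 34 and 20 counts in control 1 to 5 and 16, 19, 34, 27 and 21 counts in treated 1 to 5. Scaled to depth, that was 115, 121, 170, 96.6 and 83.9 CPM in control and 59.6, 66.9, 119, 79.8 and 83.7 CPM in the treated group. Control 3 was the highest library. The groups overlapped through treated 3, and treated 5 lay just below the lowest control. In TMM-normalized CPM, the scale of the test below, treated 3, 4 and 5 (112, 82.2 and 85.1) all lay above control 5 (81.3).

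The next member, miR-467a-5p, is shared by 10 hairpins and had 189 counts. Its levels were 67.7, 68.9, 42.4, 76.7 and 105 CPM in control 1 to 5 and 44.7, 45.7, 73.7, 35.5 and 39.9 CPM in treated 1 to 5. Treated 3 again stood above the other libraries of its group, and control 3 was the lowest control, whereas it was the highest control for miR-467e-5p.

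By edgeR's quasi-likelihood test (TMM-normalized, Benjamini-Hochberg over the 177 rows tested), miR-467e-5p differed by -0.52 ± 0.30 on the log2 scale between treated and control libraries (SE, adjusted p = 0.398) and miR-467a-5p by -0.56 ± 0.32 (adjusted p = 0.398). These were the members that passed the expression filter, 2 of 32, with 57.0% of the cluster's counts, and the other 30 were not tested in this fit. Of the 2 tested members 0 passed the adjusted threshold of 0.05 by edgeR, DESeq2's Wald test or limma. In these tests 0 of the 2 had an unadjusted p under 0.05. Over all 177 rows edgeR called 0.0%, DESeq2 1.69% and limma 0.0%, and 15.8%, 16.4% and 14.7% had an unadjusted p under 0.05. The median log2 fold change of all 177 rows was -0.02. Leaving out control 3 alone moved miR-467e-5p to -0.20, and without treated 3 the values were -0.68 and -0.74.

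Summed over its 5 rows, the miR-467 5p strands had 577 counts. In TMM-normalized CPM the sum stood at 193, 218, 239, 210 and 191 in control 1 to 5, and at 95.5, 140, 224, 134 and 166 in treated 1 to 5. Of the 5 treated libraries 4 lay below every control library, and treated 3 lay above 4 of the 5 controls, so the groups overlapped. The log2 difference was -0.47 ± 0.26 by edgeR (SE, adjusted p = 0.406, unadjusted p = 0.0896). Without treated 3 it was -0.66 (adjusted p = 0.218). Of the sums, those of miR-467 and miR-669 5p strands passed the filter, and 0 of these 2 had an unadjusted p under 0.05 by edgeR, DESeq2 or limma, against 15.8%, 16.4% and 14.1% of all 177 rows of that table.

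The other miR-467 members were scarcer. miR-467c-5p had 40 counts in 9 libraries, with a median of 8.39 CPM in control and 8.86 CPM in the treated group. miR-467d-5p had 26 counts in 6 libraries, 3 in each group. miR-467a-3p, the opposite strand of miR-467a-5p, had 14 counts, with 2, 3 and 6 counts in control 1, 2 and 4, 3 counts in treated 4, and 0 in the other libraries. The remaining rows, miR-467d-3p and miR-467b-5p, had 5 and 2 counts.

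**Figure D3:**
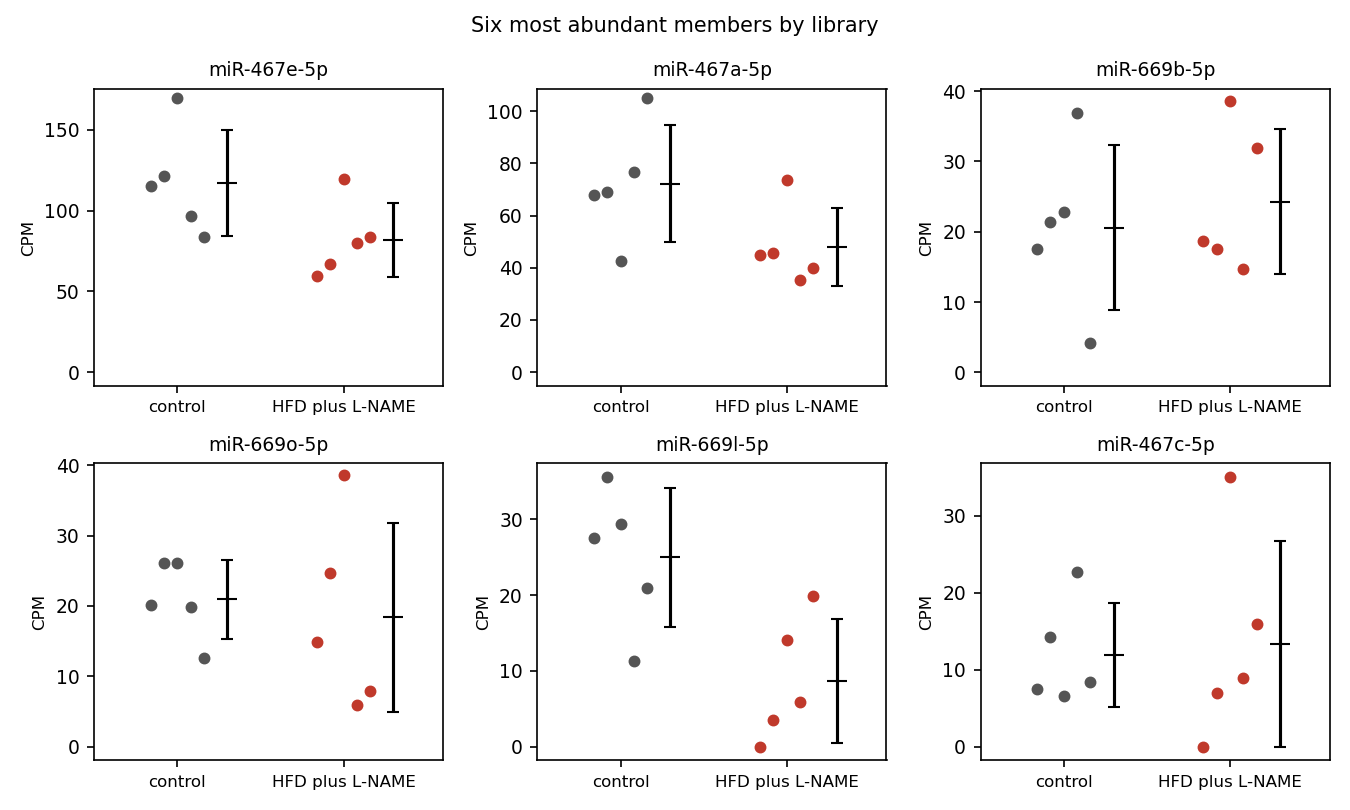
Levels of the 6 most abundant members in CPM, with 1 panel each on its own scale, 1 point per library and the mean ± SD (n = 5) beside each group. The groups overlap in all 6 panels, and miR-669l-5p shows means of 24.98 CPM in control and 8.68 CPM in the treated group.

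The miR-669 family held 224 counts, 25.1% of the cluster, and its leading members come from single hairpins near either end of the stretch. miR-669b-5p (71 counts) ranged from 4.19 to 36.9 CPM in control (median 21.4) and from 14.8 to 38.6 CPM in the treated group (median 18.6). miR-669o-5p (63 counts) ranged from 12.6 to 26.1 CPM in control (median 20.1) and from 5.91 to 38.6 CPM in the treated group (median 14.9). The groups overlapped for both, and treated 3 was the highest of all 10 libraries for each.

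The next row, miR-669l-5p (1 hairpin at 10468971 to 10469068), had 56 counts and lower levels in most treated libraries. It had 11, 15, 9, 4 and 5 counts in control 1 to 5 and 0, 1, 4, 2 and 5 counts in treated 1 to 5, which is 11.4 to 35.6 CPM against 0 to 19.9 CPM. Treated 3 and 5 overlapped with the controls. The row did not pass the expression filter. In edgeR without the filter, over all 733 rows, it differed by -1.47 ± 0.60 on the log2 scale (SE, unadjusted p = 0.0147, adjusted p = 0.363). It was the 1 member of 32 with an unadjusted p under 0.05 in that fit, where 9.28% of the 733 rows had one and the median log2 fold change of all rows was 0.11.

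The sum of the 7 miR-669 5p rows, 217 counts, differed by less than the spread between libraries. It had 70.6, 89.5, 103, 69.0 and 36.5 TMM-normalized CPM in control 1 to 5 and 47.8, 53.5, 98.7, 36.5 and 72.7 in treated 1 to 5. Control 5 and treated 4 were the lowest libraries of their groups, at the same level, and the groups overlapped over almost their whole ranges. The log2 difference was -0.26 ± 0.36 (SE, edgeR adjusted p = 0.814). It was -0.01 without control 3, -0.43 without control 5 and -0.51 without treated 3. Of the other rows, miR-669d-5p had 14 counts, 4 in control and 10 in the treated group, and miR-669a-3p, with 12 hairpins the name with the most copies, had 5. The other rows were miR-669f-5p, miR-669c-5p, miR-669f-3p and miR-669e-5p, with 7, 5, 2 and 1 counts.

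The miR-297 family had 34 counts. Its main row miR-297a-5p had 2, 4, 3, 8 and 2 counts in control 1 to 5 and 1, 0, 0, 2 and 2 counts in treated 1 to 5. All 5 control libraries held it, against 3 of 5 in the other group, at 2 counts or fewer. As a sum of 3 rows, the 5p strands of miR-297 had means of 16.3 ± 9.80 CPM in control libraries and 4.32 ± 4.96 CPM in the treated group (SD, n = 5). The sum, which includes 8 counts of miR-297c-5p and 1 of miR-297b-5p, did not pass the expression filter. Without the filter edgeR gave -1.86 ± 0.75 on the log2 scale (unadjusted p = 0.0140, adjusted p = 0.332), where 8.30% of the 711 rows of that table had an unadjusted p under 0.05.

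The miR-466 family had 39 counts over 12 rows, more rows than any other family, with 1 to 10 counts in each. miR-466b-3p had 10 counts, 3 and 4 in control 2 and 3, and 1 and 2 in treated 3 and 5. miR-466p-5p also had 10 counts, 3 in control and 7 in the treated group, of which treated 5 held 4. miR-466i-5p, the member encoded outside Sfmbt2, had 4 counts. The 2 rows without an arm in their name, miR-466f and miR-466g, had 1 count each.

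Counts varied widely among names with 1 hairpin and among names with many. Single hairpins underlie miR-467e-5p, with 320 counts, and miR-669b-5p, with 71, but also miR-467b-5p, with 2, and miR-669e-5p, with 1. The 10 hairpins of miR-467a gave 203 counts on both arms, the 8 of miR-466b gave 11, and the 12 of miR-669a gave 5 on the 3p arm, the arm with a row. No association was computed, and these values carry the uncertainty of reads shared between copies.

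Arm usage was lopsided. Over all libraries 845 counts lay on the 20 rows named 5p and 46 on the 10 rows named 3p, so that 94.8% were 5p (95% exact binomial interval 93.2% to 96.2%). In single libraries the share ran from 92.0% to 96.2% in control and from 92.3% to 100.0% in the treated group, where treated 2 had 48 counts on 5p and 0 on 3p. The means were 94.5% ± 1.64 and 96.1% ± 2.81 (SD, n = 5), with overlapping groups. In all other named miRNAs the 5p rows held 39.4% of counts, and 56.2% when miR-1a-3p, the most abundant miRNA, was left out.

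Pooled over libraries, the families had different proportions. Counts were 96.8% 5p in miR-467 (95.1% to 98.1%), 96.9% in miR-669 (93.7% to 98.7%) and 97.1% in miR-297 (84.7% to 99.9%). In miR-466 they were 48.6% 5p, 18 counts against 19, with an interval of 31.9% to 65.6% that does not reach those of the other families. These intervals cover counting error alone, not the spread between libraries. By group, miR-466 had 9 counts on 5p and 14 on 3p in control, and 9 and 5 in the treated group. Of its 5p counts 4 were of miR-466i-5p, encoded outside Sfmbt2. Among the 6 names with both arms in the table, 4 had more 5p counts and 2 had more 3p counts. miR-467a had 189 counts on 5p and 14 on 3p (93.1% 5p), and miR-467d 26 and 5 (83.9%). Both names with more 3p counts belong to miR-466. miR-466b had 1 count on 5p and 10 on 3p, and miR-466h had 2 and 3.

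**Figure D4:**
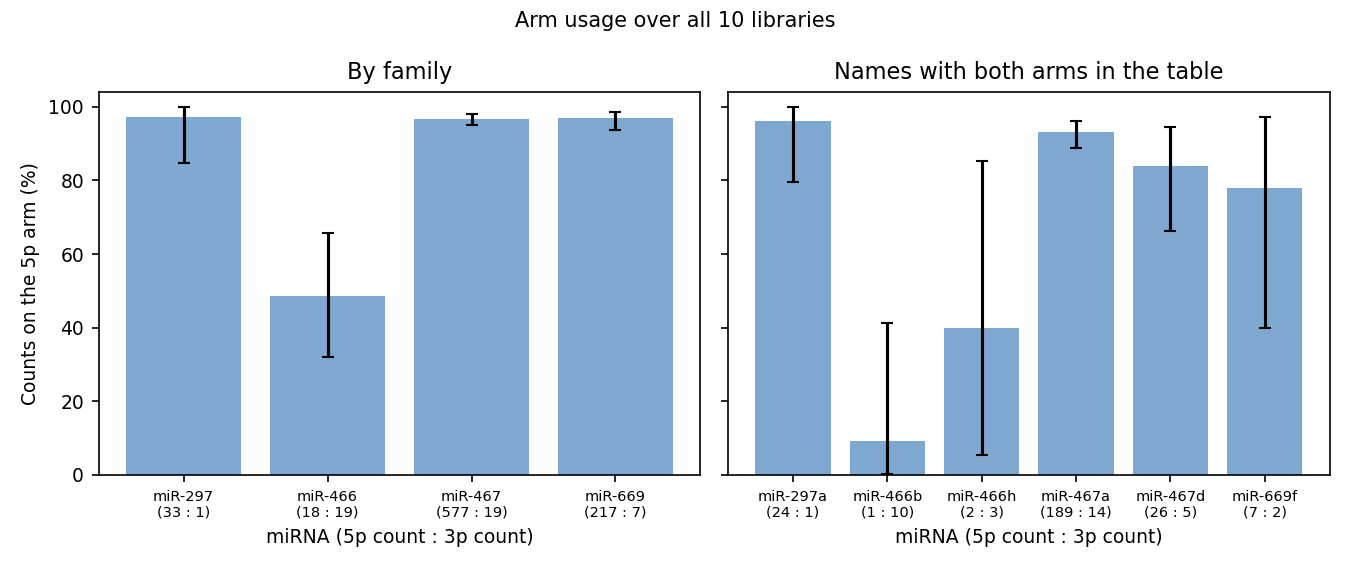
Bars give the percentage of counts on the 5p arm over all 10 libraries, by family (left) and for the 6 names with both arms in the table (right), with 95% exact binomial intervals and the counts under each bar. miR-466 stands at 48.6% and the other 3 families between 96.8% and 97.1%.

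The share of the whole cluster was 0.0303%, 0.0342%, 0.0343%, 0.0355% and 0.0273% in control 1 to 5. In treated 1 to 5 it was 0.0175%, 0.0169%, 0.0365%, 0.0192% and 0.0275%. Of the treated libraries 3 lay below every control, treated 5 lay within the control range, and treated 3 was the highest of all 10. The exact 95% interval of a single library was wide, for example 0.0125% to 0.0224% around the lowest and 0.0298% to 0.0442% around the highest. The difference of the means, treated minus control, was -0.0088 percentage points, and -0.01205 without treated 3.

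**Figure D5:**
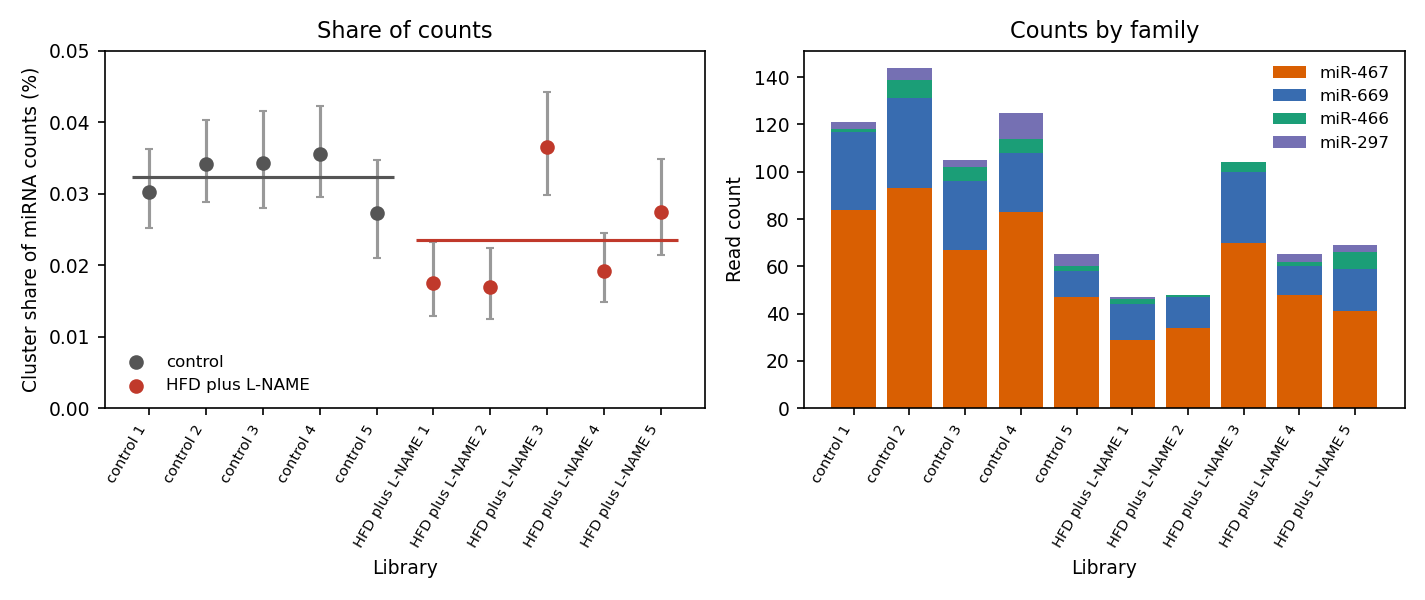
Left, the share of all miRNA counts taken by the cluster in each library in percent, with 95% exact binomial intervals and a line at the mean of each group (0.0323% and 0.0235%). Right, the same counts stacked by family, where miR-467 is the largest part in all 10 libraries.

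Other parts of the libraries moved alongside. Heart muscle markers, all 4 of which had counts, took 29.2% ± 3.84 of counts in control and 37.2% ± 5.79 in the treated group (SD, n = 5), and shares are parts of 1 total. With miR-1a-3p left out of the total, the cluster's share was 0.0431% ± 0.00621 and 0.0358% ± 0.0126. The red blood cell markers miR-451a and miR-144-3p took 1.58% to 5.50% in control and 0.878% to 2.78% in the treated group, and the 3 leukocyte markers 0.0629% to 0.135% and 0.0313% to 0.0649%. The smooth muscle markers miR-143-3p and miR-145a-5p took 4.37% to 7.02% in control and 2.91% to 4.34% in the treated group, ranges that do not overlap. The endothelial marker miR-126a-3p took 5.93% to 7.58% and 3.77% to 6.96%. Most heart muscle marker counts were of miR-1a-3p. The 2 neuron markers took 0.00326% ± 0.00159 in control and 0.00394% ± 0.00108 in the treated group (SD, n = 5). The liver marker, with a count in 5 libraries, took 0.00734% ± 0.0151 and 0.000118% ± 0.000264. In control the liver marker ran from 0% to 0.0344%, so its mean there leaned on its highest library. The embryonic stem cell and trophoblast markers took 0.001% ± 0.000322 in control and 0.000459% ± 0.000704 in the treated group. Their highest library was a treated one, at 0.00159% against at most 0.00143% in control. Smooth muscle, endothelial, red blood cell, leukocyte, liver and embryonic stem cell and trophoblast markers thus had lower mean shares in the treated group, as the cluster had. Heart muscle and neuron markers had higher ones. The part of these markers in the cluster's values was not tested. Fewer vesicles carrying these miRNAs and less of them per vesicle cannot be told apart in such libraries.

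By mean CPM, 21 of the 32 members were lower in the treated group and 11 higher, against 50.3% lower of all 733 rows and 49.4% of the 611 rows with no more counts than miR-467e-5p. The members share libraries and, in part, hairpins, and 8 of them rest on 1 count, so this count carries no test. Of the 32 members 0 had groups that did not overlap in CPM, where 1.36% of all rows had.

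Within the cluster, families took the following parts of each group. miR-467 took 67.3% ± 3.5 of cluster counts in control and 66.6% ± 6.1 in the treated group, and miR-669 took 23.6% ± 4.9 and 26.5% ± 5.0 (SD, n = 5). miR-466 took 4.0% ± 2.1 and 4.7% ± 3.2, and miR-297 5.1% ± 3.0 and 2.2% ± 2.2. The ranges of the groups overlapped for all 4 families.

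Beside the imprinted cluster between Meg3 and Mirg in the Dlk1-Dio3 region on chromosome 12, the Sfmbt2 cluster was the scarcer. The 61 Dlk1-Dio3 rows took 0.308% ± 0.0563 of counts in control and 0.286% ± 0.0442 in the treated group, with 9453 counts against 893. Per library 50.0% of Dlk1-Dio3 rows had a count, and 41.2% of the Sfmbt2 rows. The median row had 7 counts over all libraries there and 5 in the Sfmbt2 cluster. Of the Dlk1-Dio3 counts 73.0% were 5p. The 130 predicted miRNAs without a registered name had a median of 3 counts a row, and per library 42.7% of them had a count. Rows seen in 1 library numbered 11 of 32 in the Sfmbt2 cluster, 20 of 61 in Dlk1-Dio3 and 46 of 130 among predicted miRNAs. These values are descriptions without a test.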

How the data were processed

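Adaptors were ligated to small RNA for sequencing, per the labels' protocols, and 10 libraries were analysed. The authors deposited raw read counts per mature miRNA, on genome build GRCm38.p6 per the submitters' processing notes. The sources used here do not give the aligner, the counting tool, the annotation or how reads with several matches were counted. A second deposited value was taken as RPM, because the count divided by it is constant within a library, and it served only as an alternative library size.

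Counts of the whole table were tested in R 4.3.3 with edgeR 4.0.16 (TMM, filterByExpr, robust quasi-likelihood), Benjamini-Hochberg adjustment and a 0.05 threshold. SE is log2 fold change over the root of F. DESeq2 1.42.0 and limma 3.58.1 were alternatives. Other steps used Python 3.11.15, SciPy 1.17.1 and matplotlib 3.10.9. CPM carry no TMM factor unless stated. Copies could not be joined by mature sequence as planned, so rows were summed by family number and arm, a choice made after seeing the data.

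The members, lists and alternatives were chosen with earlier results of these data known. The rule named members and sums that passed the filter, the 10 members with most counts, those found in every library, the 3 smallest p and any member with over 80% of at least 10 counts in 1 library (there was none). Other members are named, after their values were seen, to account for their families. Replicate numbers follow accession order and serve as names. No batch is recorded in the labels.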

Additional observations from a re-analysis of the deposited data

Results flagged for a closer look

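Of 30 groups of 5 libraries examined for a library far from the rest, 3 held one. Chance gives about 1 in 20 for values that vary smoothly, a rate that does not hold for counts near 0. Treated 3 had 73.7 CPM of miR-467a-5p, where the next library of its group had 45.7 CPM. Control 4 had 22.7 CPM of miR-297a-5p, where the next control had 9.79 CPM. Treated 4 had 8.86 CPM of miR-467a-3p, which is 3 counts, where the other 4 libraries of its group had 0, so any count above 0 would stand apart.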

How the results depend on the processing

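The number of members past the adjusted threshold was 0 under each of 16 alternatives for single rows and 18 for sums, including each library left out. Over all rows of these fits (177 to 733) 0 to 3 passed. All but the fits without the expression filter tested 2 or 3 members or sums. A number of 0 was therefore near the rate over all rows and says little about the members. The log2 fold changes of miR-467e-5p, miR-467a-5p and the sums of miR-467 and miR-669 5p strands stayed below 0 in all 16 alternatives, with ranges of -0.89 to -0.20, -0.92 to -0.41, -0.86 to -0.30 and -0.70 to -0.01, and with adjusted p of 0.105 or more. The lower ends came from the implied read totals as library size, which moved the median of all rows to -0.38. The miRNA counts were 0.98% to 1.85% of these totals in control libraries and 1.01% to 1.55% in the treated group. With these totals the unadjusted edgeR p was 0.0197 for miR-467e-5p, 0.0183 for miR-467a-5p and 0.00951 for the miR-467 sum, where 38 of 177 rows (37 of 177 in the table of sums) had one under 0.05, all but 1 of them lower in the treated group in either table. Without treated 3 it was 0.0363 for miR-467a-5p and 0.0236 for the miR-467 sum, where 33 of 185 rows had one under 0.05. As a share of implied reads the cluster took 0.000497% in control and 0.000274% in the treated group, a difference of -0.0002238 percentage points and a ratio of 0.550, against a ratio of 0.728 for the share of miRNA counts. With a library left out, the difference in share ranged from -0.01205 to -0.007145 percentage points, in members detected from -3.15 to -1.15 and in 5p share from 0.595 to 2.52 percentage points. Joining copies by a shared run of 20 bases moved the median of all rows to 0.11 and gave -0.38 for miR-467a, b and d and -0.33 for miR-467c and e. Sums by mature sequence, identical or with up to 2 mismatches, were not run. No paired analysis was possible because the labels give the groups no shared replicate numbers. Depth limits the 30 members that were not tested.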
